A study of Mus musculus with 23 samples.

Results

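The genes described here bring amino acids into the cell, charge them onto tRNAs, build serine and feed the one-carbon units of folate metabolism. The 32 genes were chosen by symbol. They comprise 12 cytosolic aminoacyl-tRNA synthetases (Aars, Cars, Eprs, Gars, Iars, Lars, Nars, Sars, Tars, Vars, Wars and Yars), 7 amino acid transporter subunits (Slc7a5, Slc3a2, Slc1a5, Slc7a1, Slc7a6, Slc38a1 and Slc38a2) and 8 enzymes of serine synthesis and one-carbon metabolism (Shmt1, Shmt2, Mthfd1, Mthfd2, Mthfd1l, Phgdh, Psat1 and Psph). The other 5 are Asns, Bcat1, Bcat2, Odc1 and the transcription factor Atf4. Each of the 32 symbols was found once among the 21900 protein-coding genes of the deposited table, and all 32 passed the filter on low counts in both cell types.

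T cells that meet antigen and start to divide need amino acids for protein and one-carbon units for purines and thymidylate. Serine is made from a glycolytic intermediate by Phgdh, Psat1 and Psph in turn. Its side carbon is passed to folate by Shmt1 in the cytosol and Shmt2 in mitochondria, and the Mthfd enzymes interconvert the folate-bound units. A shortage of amino acids activates the kinase Gcn2 (Eif2ak4), which raises translation of Atf4. The ATF4 protein then drives transcription of Asns, synthetases, transporters and serine enzymes in what is called the integrated stress response.

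OT-I mice supply CD8 T cells and OT-II mice CD4 T cells whose transgenic T cell receptor recognises chicken ovalbumin (OVA). Cells of either kind were transferred into C57BL/6 mice. At 1 day after transfer, mice were given 1 ug of A8B1-OVA, free OVA at the same molar amount, free OVA at a higher dose, or saline. In the sample titles the OVA groups bear 0.5 and 5, with no unit given. The sources used here do not say what A8B1 is, nor the age of the mice. On day 5 after transfer the cells were sorted from combined spleens and lymph nodes, and RNA of 3 mice went into each library. Each of the 8 groups of cell type and treatment had 3 libraries here, except OT-II with higher-dose OVA. That group had 2, replicates 2 and 3. Nothing states that libraries were separate beyond these pools, so p-values measure the spread between libraries, which may be technical. As the samples are bulk RNA, fewer cells with a transcript and less of it per cell cannot be told apart.

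Between 26.6 M and 73.5 M counts were assigned to genes per library. CPM are read counts scaled to library size. Those of single genes below also use TMM factors, while the summed levels in this paragraph do not. The lineage genes went with the labels. Cd8a and Cd8b1 summed to between 2386 and 3904 CPM in OT-I libraries and between 26.97 and 60.09 CPM in OT-II libraries. Cd4 and Zbtb7b summed to between 638.4 and 788.5 CPM in OT-II libraries and to at most 16.77 CPM in OT-I libraries other than higher-dose OVA replicate 1, which had 199.1 CPM. In an alternative chosen after seeing the data, 5 of the 23 libraries were left out for higher sums of B cell, myeloid or other-lineage markers. They were picked by eye, with no fixed limit: OT-I molar-equivalent OVA replicate 2, OT-I saline replicate 1, OT-I higher-dose OVA replicate 1, OT-II saline replicate 1 and OT-II molar-equivalent OVA replicate 3. Their sums of 20 B cell markers were 3380, 904, 469.9, 991.1 and 1260 CPM, in that order. Among libraries kept, OT-I molar-equivalent OVA replicate 3 had 876 CPM and OT-II molar-equivalent OVA replicate 2 had 730.7 CPM, and the others had at most 606.2 CPM. Summed levels of 20 proliferation genes were 2261, 3761 and 1652 CPM in OT-I A8B1-OVA libraries, against 656.1 to 732 CPM in OT-I saline libraries. They were 994.6, 1214 and 716 CPM in OT-II A8B1-OVA libraries, against 432.7 to 563.8 CPM in OT-II saline libraries. Natural killer cell markers (10 genes) summed to between 132.5 and 183.2 CPM in OT-II A8B1-OVA libraries, against 56.2 to 83.03 CPM with saline. In OT-I they summed to between 206.9 and 232.2 CPM with A8B1-OVA, against 236.8 to 258.4 CPM with saline. The sums hide genes that went the other way. In OT-II with A8B1-OVA, 1 of the 10 was higher than with saline and 1 lower (median log2 -0.66). The same numbers were higher and lower in OT-I (median -0.69). In OT-II with A8B1-OVA, 4 of 24 myeloid markers were lower than with saline (median log2 -1.05, DESeq2 7 lower). There 1 of 13 erythroid and platelet markers was lower (median -1.15) and 1 of 20 B cell markers higher. In OT-I against saline, 2 of 20 B cell markers were higher and 1 lower, and 0 of 23 myeloid markers were called. Over all tested genes, A8B1-OVA against saline gave 4.4% higher and 2.88% lower in OT-II, and 7.07% and 4.43% in OT-I. In OT-I with A8B1-OVA, 2 of 20 B cell markers (median -2.46, DESeq2 13 lower) were lower than with molar-equivalent OVA. So were 3 of 23 myeloid markers (median -2.26, DESeq2 12 lower), where 4.06% of all tested genes were lower. The part of proliferation or of other cells in the results below was not tested.

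In both cell types Bcat1, Shmt1, Psat1 and Odc1 were higher with A8B1-OVA than with saline, while 11 of 12 synthetases in OT-I and all 12 in OT-II did not pass the test. Atf4 was lower in OT-II cells and did not pass in OT-I cells. A gene was called where the adjusted p of edgeR's quasi-likelihood test (Benjamini-Hochberg over all tested genes) was under 0.05. Between OT-I A8B1-OVA and saline libraries, 11.5% of the 14080 tested genes were called (7.07% higher and 4.43% lower). Of the 32 genes, 6 were higher and 1 lower, with a median log2 fold change of 0.23 against -0.02 over all tested genes. Between OT-II A8B1-OVA and saline libraries 7.28% of 14757 tested genes were called (4.4% higher and 2.88% lower). There 6 of the 32 were higher and 2 lower, with a median of 0.14 against -0.01 over all genes. Without the 5 libraries with higher marker sums, 6 were called in OT-I and 8 in OT-II.

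**Figure D1:**
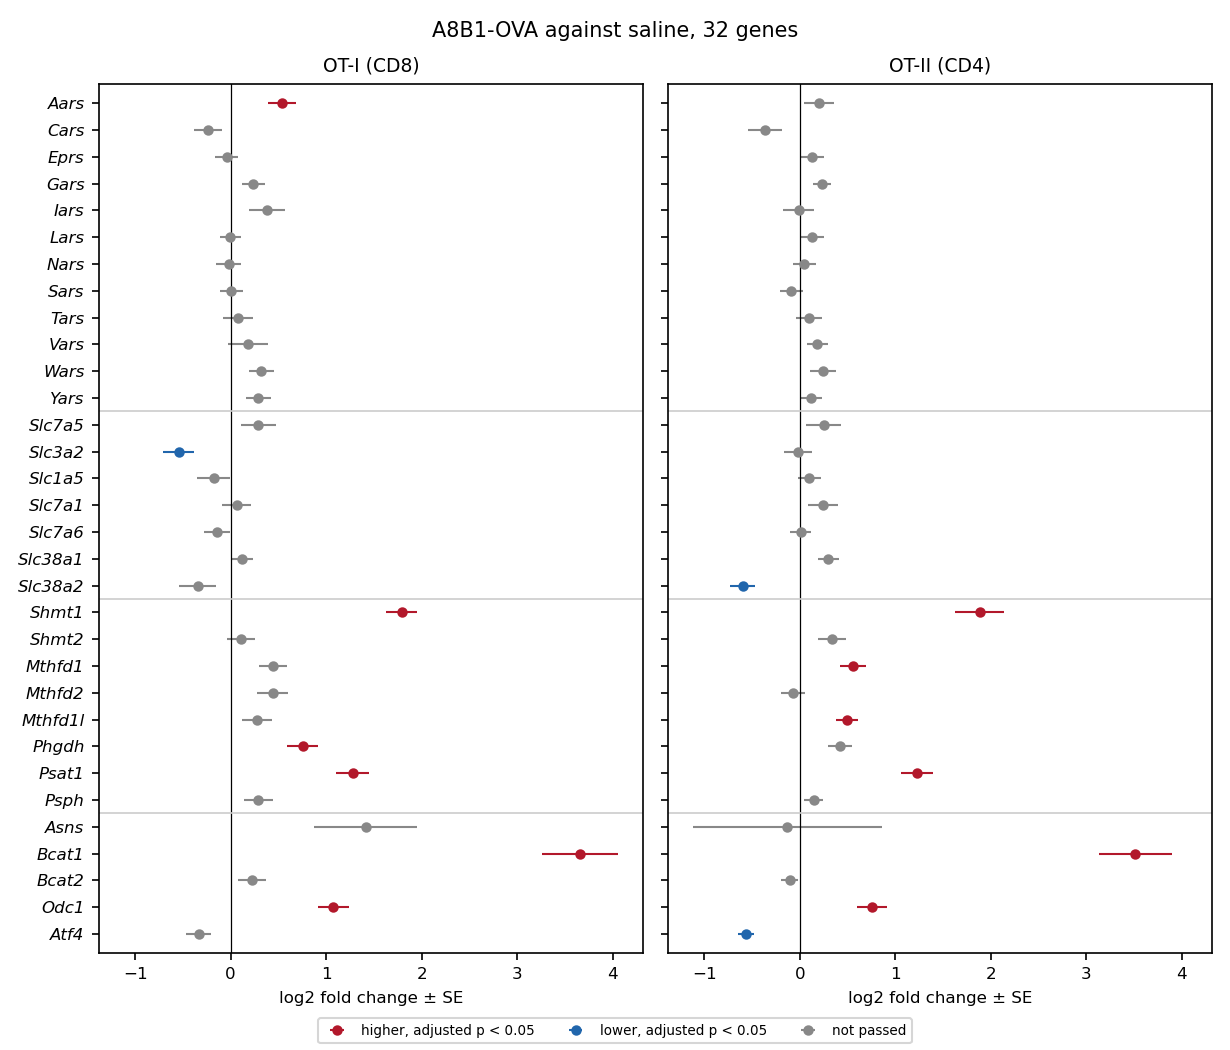
Log2 fold change of A8B1-OVA over saline (horizontal axis, edgeR estimate ± SE) for each of the 32 genes, with OT-I on the left and OT-II on the right; grey lines part synthetases, transporters, serine and one-carbon enzymes, and the other genes. Bcat1 lies farthest right in both panels, at 3.66 and 3.52, and most synthetases lie close to 0.

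Among serine and one-carbon enzymes, 3 of 8 rose in OT-I (Shmt1, Psat1 and Phgdh) and 4 of 8 in OT-II (Shmt1, Psat1, Mthfd1 and Mthfd1l). None fell. The median log2 fold change of the 8 was 0.44 in OT-I and 0.46 in OT-II. The cytosolic serine hydroxymethyltransferase changed most and its mitochondrial counterpart Shmt2 did not pass the test, at 0.11 in OT-I (adjusted p = 0.67, edgeR) and 0.34 in OT-II (adjusted p = 0.2).

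Shmt1 (ENSMUSG00000020534, GRCm38 with GENCODE M21 gene models, chr11:60788104-60811718, minus strand) had 108, 107 and 83.9 CPM in OT-I A8B1-OVA libraries, against 31.7, 26.1 and 28.8 CPM in OT-I saline libraries. In OT-II it had 44.9, 56.4 and 37.7 CPM with A8B1-OVA, against 12.5, 13.6 and 11.6 CPM with saline. All A8B1-OVA libraries lay above all libraries of the other treatments of their cell type. The log2 fold change was 1.79 ± 0.16 (SE) in OT-I, adjusted p = 7.03e-05, and 1.88 ± 0.26 in OT-II, adjusted p = 0.00123 (edgeR). The call held in every alternative fit of these 2 comparisons.

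Psat1 (ENSMUSG00000024640, chr19:15904678-15947337, minus strand), which makes phosphoserine, had 117, 152 and 87.3 CPM in OT-I A8B1-OVA libraries, against 50.9, 49.1 and 47.2 CPM in saline libraries. In OT-II it had 66.2, 59.9 and 45.7 CPM with A8B1-OVA, against 29.2, 23.9 and 20.3 CPM with saline. Groups did not overlap, and OT-I A8B1-OVA libraries spread more (119 ± 32.5 CPM, SD, n = 3) than saline libraries (49.1 ± 1.84 CPM). This gave a log2 fold change of 1.28 ± 0.17 in OT-I, adjusted p = 0.000531, and of 1.23 ± 0.17 in OT-II, adjusted p = 0.00115 (edgeR).

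Phgdh (ENSMUSG00000053398, chr3:98313170-98339990, minus strand), the entry enzyme of serine synthesis, had 401, 412 and 282 CPM in OT-I A8B1-OVA libraries. Saline libraries had 230.2, 218 and 201 CPM. Its log2 fold change of 0.75 ± 0.16 passed at an adjusted p of 0.0106 (edgeR). Without A8B1-OVA replicate 2 it was 0.68 with an adjusted p of 0.052, and without saline replicate 3 it was 0.71 with an adjusted p of 0.0591. In OT-II, Phgdh had 217, 291 and 213 CPM with A8B1-OVA and 193, 170.2 and 174 CPM with saline, and its log2 fold change of 0.42 did not pass (adjusted p = 0.0637). Of its 31-base words, 71.5% also occur in another gene, mostly the pseudogene Gm7901, so its counts are uncertain to the extent that reads were split.

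Psph, which completes serine synthesis, did not pass in either cell type (0.29 in OT-I, 0.14 in OT-II). Mthfd1, the cytosolic trifunctional folate enzyme, averaged 128 ± 9.60 CPM in OT-II A8B1-OVA libraries and 86.8 ± 15.4 CPM in saline libraries (SD, n = 3 each), a log2 fold change of 0.56 (adjusted p = 0.0261, edgeR). Mthfd1l, which makes formate in mitochondria, averaged 65.7 ± 2.99 CPM with A8B1-OVA and 46.7 ± 2.67 CPM with saline in OT-II, a log2 fold change of 0.49 (adjusted p = 0.0228). Both calls depended on single libraries. Mthfd1 was lost without A8B1-OVA replicate 1 or 2 or saline replicate 2 or 3, with adjusted p between 0.0764 and 0.11 (log2 fold change 0.45 without saline replicate 3), and with only the compared groups (0.0551). Mthfd1l was lost without A8B1-OVA replicate 1 or 3 or saline replicate 2 or 3, with adjusted p between 0.057 and 0.0818. In OT-I the log2 fold changes of Mthfd1 and Mthfd1l were 0.44 and 0.27 and did not pass.

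Mthfd2, a mitochondrial folate dehydrogenase widely followed in dividing cells, had 69.4, 81 and 60.7 CPM in OT-I A8B1-OVA libraries, against 53.1, 50.01 and 52.5 CPM in saline libraries. In OT-II it had 64, 72.6 and 65.3 CPM with A8B1-OVA, against 76.9, 76.6 and 59.1 CPM with saline. OT-I groups did not overlap and OT-II groups did. The log2 fold change was 0.44 in OT-I (adjusted p = 0.104) and -0.08 in OT-II (adjusted p = 0.812, edgeR). Without OT-I A8B1-OVA replicate 3, the OT-I value passed (0.54, adjusted p = 0.0478).

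**Figure D2:**
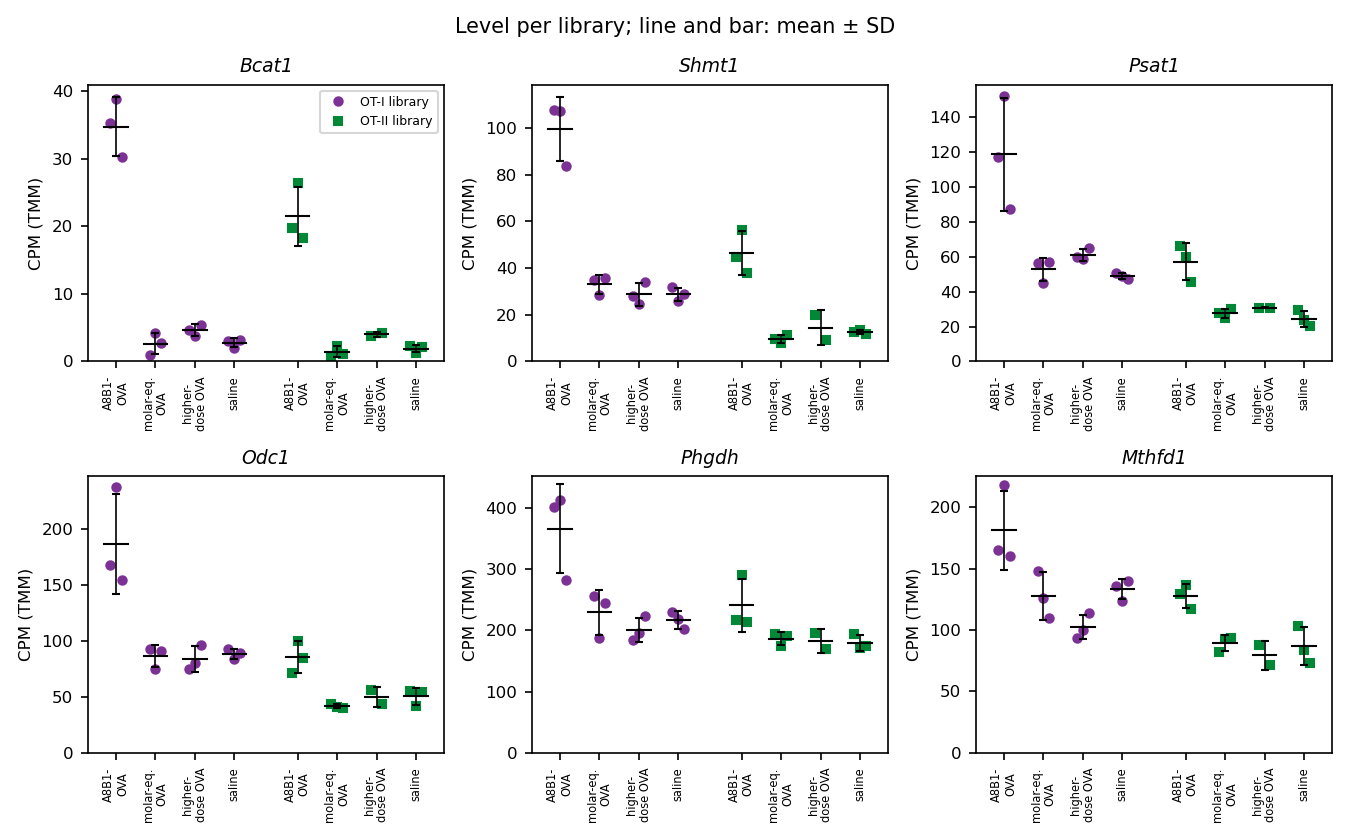
Levels in CPM with TMM factors (vertical axes, from 0) of Bcat1, Shmt1, Psat1, Odc1, Phgdh and Mthfd1 in each library, by treatment, with OT-I as circles and OT-II as squares; lines and bars are mean and SD. A8B1-OVA libraries stand above the other treatments for Bcat1, Shmt1, Psat1 and Odc1 in both cell types.

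Bcat1 had the highest fold change of the 32 in both cell types. It encodes the cytosolic branched-chain aminotransferase, which moves the amino group of leucine, isoleucine or valine to a keto acid. Bcat1 (ENSMUSG00000030268, chr6:144993835-145076184, minus strand) had 35.3, 38.8 and 30.2 CPM in OT-I A8B1-OVA libraries, against 3.02, 2.03 and 3.21 CPM in saline libraries. In OT-II it had 19.7, 26.4 and 18.3 CPM with A8B1-OVA, against 2.21, 1.24 and 2.19 CPM with saline. The gap between the groups was many times their spread. The fold was 12.6 in OT-I (log2 3.66 ± 0.40, adjusted p = 0.000142) and 11.4 in OT-II (log2 3.52 ± 0.38, adjusted p = 0.000291, edgeR). Its mitochondrial counterpart Bcat2 did not pass, with 51.8 ± 5.73 CPM with A8B1-OVA and 44.2 ± 5.48 CPM with saline in OT-I, and 75.5 ± 1.08 and 81.3 ± 5.30 CPM in OT-II (SD, n = 3 each).

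Odc1 (ENSMUSG00000011179, chr12:17544794-17551505, plus strand), ornithine decarboxylase, opens polyamine synthesis. It had 168, 238 and 154 CPM in OT-I A8B1-OVA libraries, against 92.6, 83.8 and 89.4 CPM in saline libraries. OT-II libraries had 71.4, 100.3 and 84.9 CPM with A8B1-OVA, against 55.3, 41.6 and 54.8 CPM with saline. Neither cell type showed overlap, and the log2 fold change was 1.08 ± 0.17 in OT-I (adjusted p = 0.00133) and 0.76 ± 0.15 in OT-II (adjusted p = 0.0115, edgeR). Of its 31-base words 52% also occur in another gene, mostly the pseudogene Gm7993, so its counts carry the same uncertainty as those of Phgdh.

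Asns, asparagine synthetase and a standard ATF4 target, was low, with 130, 80 and 139 counts in OT-I A8B1-OVA libraries and 82, 26 and 32 counts in OT-I saline libraries. It had 2.61, 1.51 and 1.85 CPM in OT-I A8B1-OVA libraries, against 1.28, 0.372 and 0.580 CPM in saline libraries, and at most 1.40 CPM in any OT-II library. Its log2 fold change of 1.41 ± 0.54 in OT-I did not pass (adjusted p = 0.115, edgeR). Without the 5 libraries with higher marker sums it was 2.07 with an adjusted p of 0.0262.

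RefSeq promoters are given for 3 genes that moved together in both cell types. They cover the 250 bases before the start site on the gene's own strand (RefSeq, GRCm38.p6): Bcat1 chr6:145076158-145076407, Shmt1 chr11:60811266-60811515 and Psat1 chr19:15925060-15925309, all minus strand. RefSeq lists another start for Bcat1 and for Psat1. All letters are lower case because neither motif searched, TGATGNAA or CACGTG on either strand, occurs in them.
Bcat1: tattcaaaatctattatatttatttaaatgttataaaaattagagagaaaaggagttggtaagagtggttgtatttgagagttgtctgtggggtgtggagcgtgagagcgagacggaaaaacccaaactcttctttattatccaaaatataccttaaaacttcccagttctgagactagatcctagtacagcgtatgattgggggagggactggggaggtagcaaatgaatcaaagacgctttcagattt
Shmt1: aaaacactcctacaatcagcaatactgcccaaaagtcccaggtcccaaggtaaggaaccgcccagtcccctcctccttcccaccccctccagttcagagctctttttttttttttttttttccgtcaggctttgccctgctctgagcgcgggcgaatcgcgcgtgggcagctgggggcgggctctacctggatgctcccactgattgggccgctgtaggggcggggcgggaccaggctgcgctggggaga
Psat1: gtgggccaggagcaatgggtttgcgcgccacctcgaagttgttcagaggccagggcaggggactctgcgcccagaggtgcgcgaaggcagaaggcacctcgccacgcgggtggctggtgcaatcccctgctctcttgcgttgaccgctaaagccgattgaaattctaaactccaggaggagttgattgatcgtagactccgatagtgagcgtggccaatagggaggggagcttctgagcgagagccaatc

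The 2 motifs are the letters of the C/EBP-ATF response element, TGATGNAA (TTNCATCA on the other strand), and the E-box CACGTG, which Myc and its partners bind. Windows of 300 bases (250 before to 50 after the start) were found for 24 of the 32 genes, 29 windows in all. TGATGNAA occurred in those of 6 genes, 5 of them synthetases and the other Asns, of the 24 matched, while 3.97% of 32851 RefSeq promoters and 4.51% of 27025 RefSeq genes hold it. CACGTG occurred in those of Aars, Iars and Tars, against 7.15% of promoters and 8.09% of genes. No match of one motif overlapped the other. Neither occurred in the windows of Bcat1, Shmt1, Psat1, Odc1, Phgdh or Atf4, which says only that these letters are absent there. The genes without a matched window, which were not searched, are Cars, Lars, Nars, Vars, Wars, Slc7a5, Slc1a5 and Slc38a1.

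Among transporters, 1 of 7 fell with A8B1-OVA in each cell type, and it was a different gene in each. In OT-I it was Slc3a2, the heavy chain that pairs with Slc7a5 and Slc7a6. In OT-II it was Slc38a2, a sodium-coupled carrier of small neutral amino acids. None rose in either cell type; 1 of 7 had an unadjusted p under 0.05 in OT-I and 2 in OT-II, and DESeq2 called the same number as edgeR. The median log2 fold change was -0.15 in OT-I and 0.10 in OT-II.

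Slc3a2 (ENSMUSG00000010095, chr19:8706882-8723369, minus strand) had 165, 141 and 140.4 CPM in OT-I A8B1-OVA libraries, against 247, 183 and 221 CPM in saline libraries. In OT-II it had 214, 183 and 169 CPM with A8B1-OVA, against 208, 188 and 176 CPM with saline. OT-I groups were apart and OT-II groups overlapped. The log2 fold change was -0.55 ± 0.16 in OT-I (adjusted p = 0.0428, edgeR) and -0.02 in OT-II (adjusted p = 0.968). The OT-I call was lost without A8B1-OVA replicate 1, 2 or 3 or saline replicate 1 or 3, with adjusted p between 0.0578 and 0.173, and the value was -0.44 without saline replicate 1, and likewise -0.44 without the 5 libraries (adjusted p = 0.116). Slc7a5, the light chain that carries leucine and other large neutral amino acids, had 92.6, 114 and 79.6 CPM in OT-I A8B1-OVA libraries, against 80.7, 74.3 and 79.6 CPM in saline libraries. Its log2 fold change of 0.29 did not pass (adjusted p = 0.343), nor did that of 0.25 in OT-II (adjusted p = 0.489).

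Slc38a2 (ENSMUSG00000022462, chr15:96687392-96699730, minus strand) had 188, 139 and 187 CPM in OT-II A8B1-OVA libraries, against 238, 266 and 274 CPM in saline libraries. The log2 fold change was -0.60 ± 0.13 with an adjusted p of 0.0154 (edgeR). Without saline replicate 2 the adjusted p was 0.0502, and without saline replicate 3 it was 0.0629. In OT-I, Slc38a2 had 131, 150.5 and 191 CPM with A8B1-OVA, against 188, 204 and 209 CPM with saline, and -0.35 did not pass (adjusted p = 0.275). The related carrier Slc38a1 and the glutamine carrier Slc1a5 did not pass. Slc38a1 stood at 0.12 in OT-I and 0.30 in OT-II, and Slc1a5 at -0.18 in OT-I and 0.10 in OT-II. The cationic carriers Slc7a1 and Slc7a6 lay between -0.15 and 0.24 in the 2 cell types.

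Of the 12 synthetases 1 passed the test in OT-I, Aars, the alanyl-tRNA synthetase, which was higher. There 7.07% of all tested genes were called higher. None of the 12 passed in OT-II, where 7.28% of all tested genes were called. The median log2 fold change of the 12 was 0.13 in OT-I. In OT-II 1 of the 12, Gars, had an unadjusted p under 0.05 (log2 0.24, adjusted p = 0.173, edgeR), and DESeq2 called none. The 12 values ran from -0.24 (Cars) to 0.53 (Aars) in OT-I and from -0.36 (Cars) to 0.24 (Wars) in OT-II. Iars, Wars and Yars stood at 0.38, 0.32 and 0.29 in OT-I, with adjusted p of 0.221, 0.144 and 0.166.

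Aars (ENSMUSG00000031960, chr8:111033144-111057664, plus strand) had 143, 171 and 139 CPM in OT-I A8B1-OVA libraries, against 103, 102 and 108 CPM in saline libraries. OT-II libraries had 144, 140.2 and 144 CPM with A8B1-OVA, against 157, 119 and 96.9 CPM with saline, and the groups overlapped. The log2 fold change was 0.53 ± 0.15 in OT-I (adjusted p = 0.0334) and 0.20 in OT-II (adjusted p = 0.527, edgeR). The OT-I call was lost without A8B1-OVA replicate 1 or 2 and without any of saline replicates 1, 2 and 3, with adjusted p between 0.0565 and 0.145. It was also lost with the replicate block (0.058) and without the 5 libraries with higher marker sums (0.123). Aars shares 20.3% of its 31-base words with another gene, mostly Exosc6, and Iars 17.2%, mostly with Gm4849, so their counts are uncertain where reads could be split. With other protein-coding genes alone the shares are 20.3% for Aars, 0.222% for Iars and 0% for Phgdh and Odc1.

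Stretches of 30 bases around a TGATGNAA match, the letters read by ATF4 and its partners, are given, 1 for each of the 6 genes. Aars has another match, in chr8:111033719-111033748, that is not printed. The match is in capitals, and the stretches are at chr8:111033840-111033869 (Aars), chr6:55037960-55037989 (Gars), chr13:49682126-49682155 (Iars) and chr4:129189895-129189924 (Yars) on the plus strand. Those of Tars (chr15:11399655-11399684) and Asns (chr6:7693214-7693243) are on the minus strand. A match is a description of letters, not a bound site. Of the 6 genes, Aars alone was called with A8B1-OVA, in OT-I.
Aars: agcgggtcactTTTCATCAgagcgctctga
Gars: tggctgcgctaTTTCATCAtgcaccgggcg
Iars: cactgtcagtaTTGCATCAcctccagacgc
Yars: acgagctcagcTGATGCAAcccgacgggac
Tars: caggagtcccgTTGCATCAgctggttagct
Asns: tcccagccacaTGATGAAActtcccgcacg

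Atf4 (ENSMUSG00000042406, chr15:80255184-80257541, plus strand) encodes the transcription factor itself and had 119, 114 and 106 CPM in OT-II A8B1-OVA libraries, against 165, 161 and 173 CPM in saline libraries. The OT-II libraries with molar-equivalent OVA had 129, 136 and 141 CPM and those with higher-dose OVA 131 and 126 CPM. All OT-II saline libraries lay above all OT-II libraries of the other 3 treatments. With A8B1-OVA the log2 fold change was -0.56 ± 0.09 (adjusted p = 0.00209, edgeR), and the call held in every alternative fit. In OT-I, Atf4 had 109.8, 102 and 94.5 CPM with A8B1-OVA, against 131, 132 and 123 CPM with saline, and -0.33 ± 0.13 did not pass (adjusted p = 0.124). ATF4 is regulated mainly at translation, which these RNA levels do not measure.

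**Figure D3:**
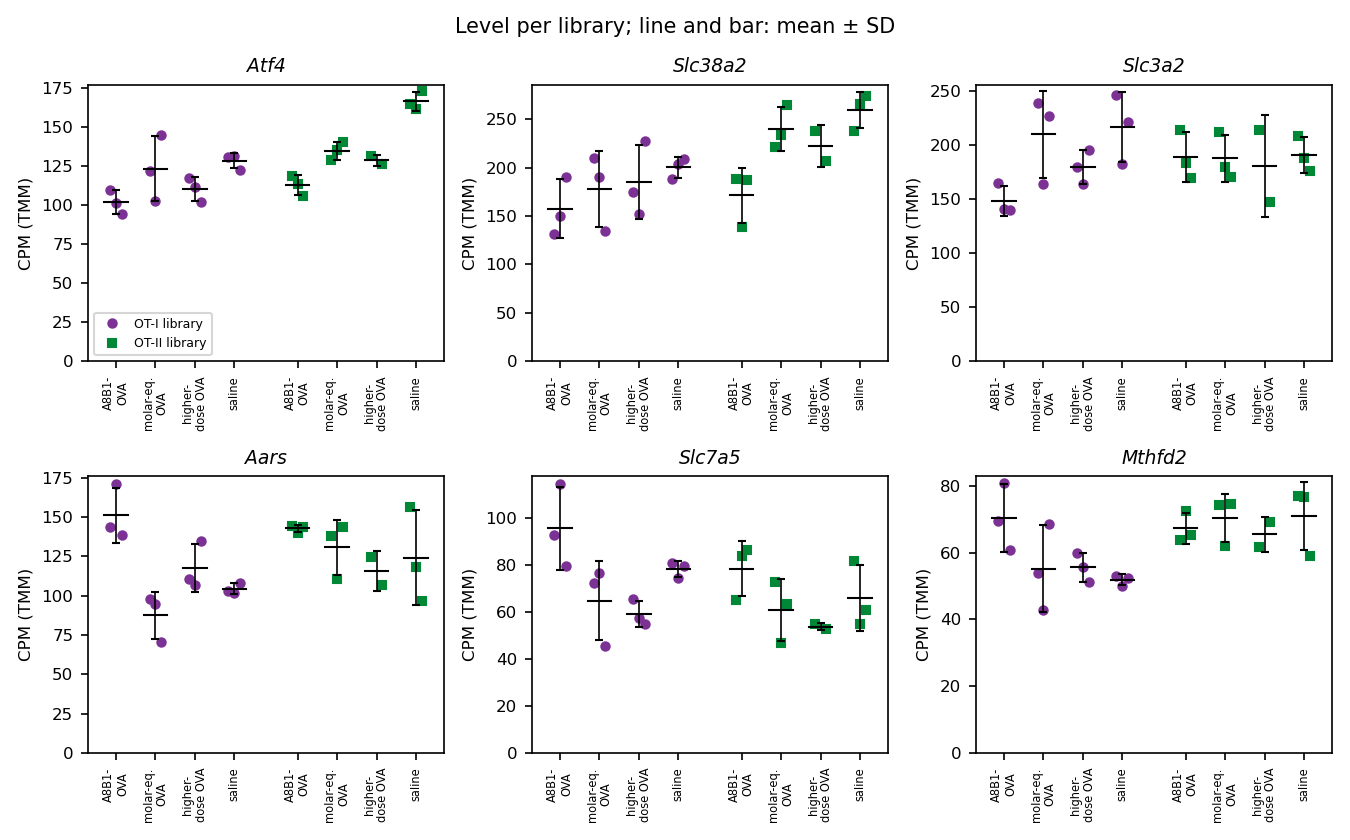
Levels in CPM with TMM factors (vertical axes, from 0) of Atf4, Slc38a2, Slc3a2, Aars, Slc7a5 and Mthfd2 in each library, by treatment, with OT-I as circles and OT-II as squares; lines and bars are mean and SD. OT-II A8B1-OVA libraries lie below OT-II saline libraries for Atf4 and Slc38a2, and OT-I A8B1-OVA libraries lie below OT-I saline libraries for Slc3a2.

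A8B1-OVA was also compared with free OVA at the same molar amount and at the higher dose. These comparisons share their A8B1-OVA libraries with those above, so they are not independent of them. Against molar-equivalent OVA in OT-I, where 10.6% of tested genes were called (6.56% higher and 4.06% lower), 7 of the 32 were higher and none lower. They were Bcat1 (log2 3.75), Shmt1 (1.59), Psat1 (1.17), Odc1 (1.11), Aars (0.79), Phgdh (0.67) and Mthfd1 (0.50). Here the Aars call held in every alternative fit, whereas Phgdh no longer passed when A8B1-OVA replicate 1 was left out (adjusted p = 0.0626), nor without A8B1-OVA replicate 2 (0.0897) or molar-equivalent OVA replicate 2 (0.0549). Mthfd1 was lost without A8B1-OVA replicate 1 or 2 or molar-equivalent OVA replicate 2 or 3, with adjusted p between 0.059 and 0.199 (edgeR). It was also lost with no filter on low counts (0.0535), with the replicate block (0.0778), with only the compared groups (0.174) and without the 5 libraries (0.138). Phgdh was lost with only the compared groups (0.112) and without the 5 libraries (0.0906).

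In OT-II 6.36% of tested genes were called between A8B1-OVA and molar-equivalent OVA (3.94% higher and 2.43% lower), and 7 of the 32 were higher and 1 lower. Bcat1 (log2 3.91), Shmt1 (2.27), Psat1 (1.06) and Odc1 (1.03) were higher in every alternative fit. Mthfd1l (0.52), Mthfd1 (0.51) and Slc38a1 (0.51) were higher and Slc38a2 (-0.48) lower in calls that hung on single libraries. Without OT-II molar-equivalent OVA replicate 3 their adjusted p were 0.0693, 0.0844, 0.0628 and 0.154. Without OT-II A8B1-OVA replicate 1 they were 0.0613, 0.103, 0.0535 and 0.0592, in the same order (edgeR). Some were also lost without other libraries: Slc38a2, Mthfd1 and Slc38a1 without A8B1-OVA replicate 2 (0.125, 0.127 and 0.0579) or molar-equivalent OVA replicate 1 (0.0745, 0.153 and 0.0686), and Slc38a2, Mthfd1 and Mthfd1l without molar-equivalent OVA replicate 2 (0.085, 0.0833 and 0.0742). With the replicate block Mthfd1 (0.0538) and Slc38a2 (0.0684) were lost, with only the compared groups Slc38a2 (0.0818), and without the 5 libraries Mthfd1l (0.0764), Slc38a1 (0.0674) and Slc38a2 (0.144).

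Against higher-dose OVA in OT-I, with 2.41% of tested genes called (1.63% higher and 0.774% lower), 6 of the 32 were higher and none lower. Bcat1 averaged 34.8 ± 4.31 CPM with A8B1-OVA and 4.60 ± 0.867 CPM with higher-dose OVA (SD, n = 3 each), a log2 fold change of 2.92 (adjusted p = 0.00314, edgeR). Shmt1 stood at 1.79, Odc1 at 1.15, Psat1 at 0.96, Phgdh at 0.86 and Mthfd1 at 0.82. Calls of Bcat1 and Shmt1 held in every alternative fit and that of Odc1 without any single library. Without the 5 libraries Odc1 (adjusted p = 0.0552), Psat1 (0.0919), Phgdh (0.0974) and Mthfd1 (0.131) were lost. Psat1, Phgdh and Mthfd1 were lost without A8B1-OVA replicate 2 (adjusted p = 0.0656, 0.115 and 0.0881), and without higher-dose OVA replicate 1 (0.0677, 0.09 and 0.0815) or 2 (0.0518, 0.0577 and 0.0529). Without higher-dose OVA replicate 3, Psat1 and Phgdh were lost (0.0619 and 0.0582), and without A8B1-OVA replicate 1, Phgdh was (0.073). Slc7a5 and Shmt2 narrowly missed the threshold, at 0.69 (adjusted p = 0.0700) and 0.57 (adjusted p = 0.0544).

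In OT-II, with 2 higher-dose OVA libraries, 1.34% of tested genes were called between A8B1-OVA and higher-dose OVA (0.82% higher and 0.522% lower). Of the 32 genes 4 were higher and none lower: Bcat1 (log2 2.43, adjusted p = 0.021), Shmt1 (1.68, adjusted p = 0.0214), Psat1 (0.90, adjusted p = 0.0393) and Mthfd1l (0.61, adjusted p = 0.0432, edgeR). None of the 4 calls held without each library in turn. Shmt1 had 19.8 and 9.08 CPM in the 2 higher-dose OVA libraries, and its log2 fold change was 2.36 without replicate 2 and 1.23 without replicate 3. Without higher-dose OVA replicate 3 the adjusted p were 0.154, 0.132, 0.24 and 0.297. Without higher-dose OVA replicate 2 the adjusted p of Bcat1 was 0.235, that of Psat1 0.288 and that of Mthfd1l 0.211. Without A8B1-OVA replicate 1 the adjusted p were 0.0553, 0.064, 0.127 and 0.124, and without A8B1-OVA replicate 2 they were 0.0666, 0.0672, 0.112 and 0.084. Without A8B1-OVA replicate 3 that of Mthfd1l was 0.0779.

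Free OVA alone gave no call among the 32 genes. Between higher-dose OVA and saline, edgeR called 2.41% of tested genes in OT-I (1.97% higher and 0.44% lower) and 0.0271% in OT-II (0.0203% higher and 0.00678% lower), and none of the 32 in either. Those percentages are for adjusted p, and the share of all tested genes with an unadjusted p under 0.05 was not counted. In OT-I 5 of the 32 had an unadjusted p under 0.05, all lower (Slc7a5, Slc7a1, Slc7a6, Shmt2 and Mthfd1), and DESeq2 called Shmt2 lower. Shmt2 had 152, 161 and 183 CPM with higher-dose OVA, against 236, 214 and 234 CPM with saline in OT-I, and did not overlap (log2 -0.47, adjusted p = 0.135, edgeR). In OT-II 4 had an unadjusted p under 0.05 (Cars, Lars, Atf4 and Bcat1), and DESeq2 called Atf4 lower (edgeR log2 -0.37, adjusted p = 0.392).

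Bcat1 with higher-dose OVA had 4.66, 3.70 and 5.44 CPM in OT-I, against 3.02, 2.03 and 3.21 CPM with saline. In OT-II it had 3.76 and 4.20 CPM with higher-dose OVA, against 2.21, 1.24 and 2.19 CPM with saline. No groups overlapped, but the log2 fold changes of 0.74 (adjusted p = 0.467) and 1.09 (adjusted p = 0.703) did not pass in edgeR. Shmt1 with higher-dose OVA stood at 0.00 in OT-I, with a 95% confidence interval of -0.34 to 0.34.

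Between molar-equivalent OVA and saline, 0% of tested genes were called in OT-I and 0% in OT-II. Among the 32, none had an unadjusted p under 0.05 in OT-I and 1 (Atf4, log2 -0.30) did in OT-II, and DESeq2 called none in either. Between higher-dose and molar-equivalent OVA, edgeR called 1.04% of genes in OT-I and 0% in OT-II, and none of the 32 in either. There 5 of the 32 had an unadjusted p under 0.05 in OT-I and 3 in OT-II, and DESeq2 called 1 (Shmt2, lower) in OT-I and none in OT-II.

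**Figure D4:**
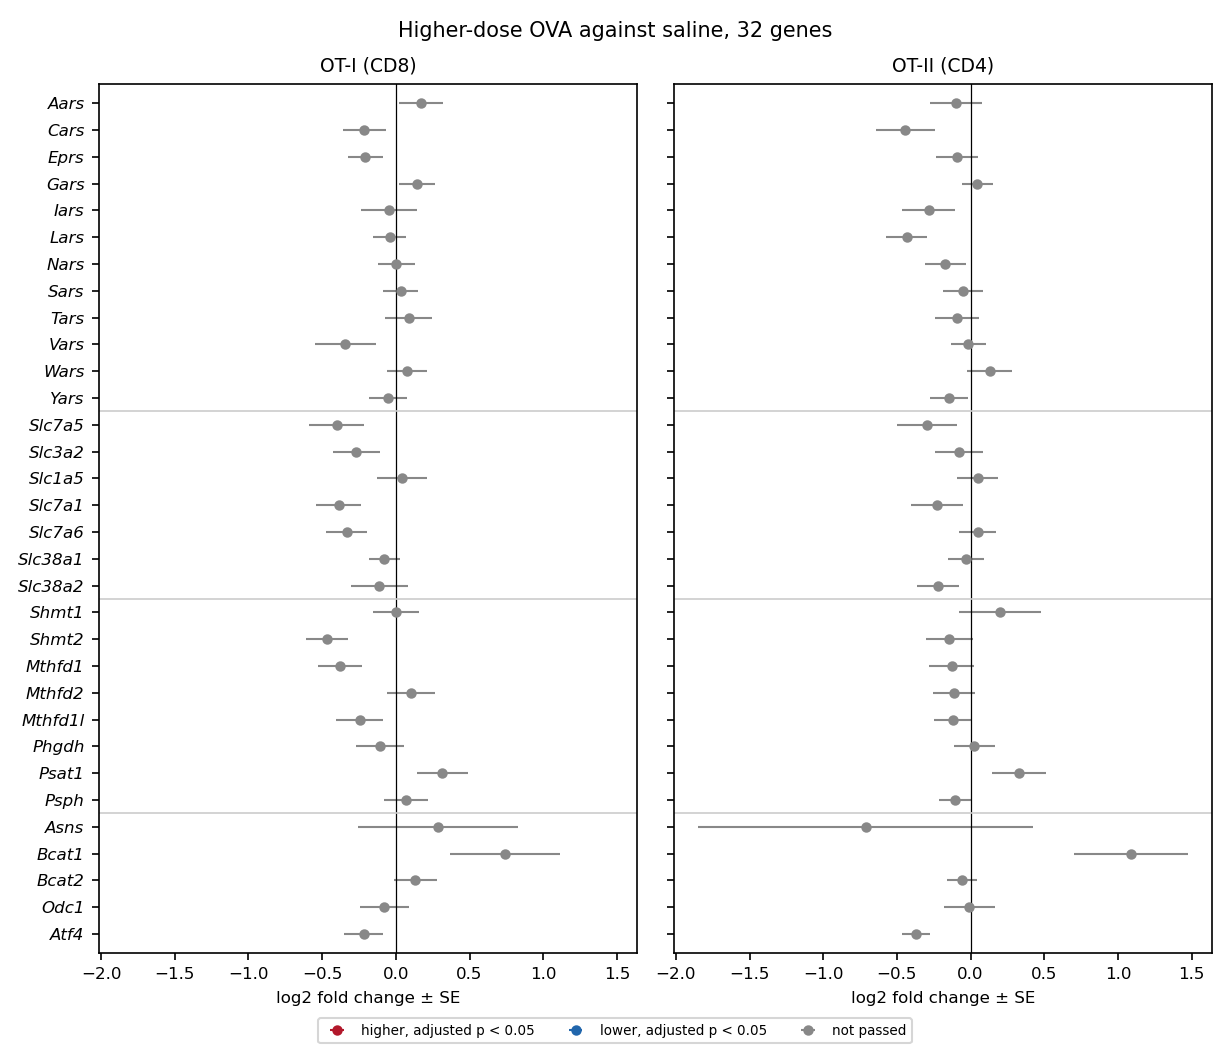
Log2 fold change of higher-dose OVA over saline (horizontal axis, edgeR estimate ± SE) for each of the 32 genes, with OT-I on the left and OT-II on the right. No gene passed an adjusted p of 0.05, and Bcat1 has the highest value in both panels, at 0.74 and 1.09.

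Whether OT-I and OT-II cells answered A8B1-OVA differently was tested as an interaction in a joint fit of all 23 libraries (15235 genes). None of the 32 passed, where 0.433% of genes did (0.309% higher and 0.125% lower in OT-I); 3 of the 32 had an unadjusted p under 0.05, and DESeq2 called none. The difference of the log2 responses, OT-I minus OT-II, was 0.17 for Bcat1 (confidence interval -0.96 to 1.30), -0.07 for Shmt1 (-0.71 to 0.57), 0.08 for Psat1 (-0.44 to 0.59) and 0.35 for Odc1 (-0.15 to 0.84). For Atf4 it was 0.26 (-0.06 to 0.57). The 3 with a low unadjusted p were Mthfd2 (0.54, 0.10 to 0.98, adjusted p = 0.389), Slc3a2 (-0.50, -0.98 to -0.03, adjusted p = 0.487) and Bcat2 (0.36, adjusted p = 0.529). That Slc3a2 and Aars passed in OT-I and Slc38a2 and Atf4 in OT-II is therefore not shown to be a difference between the cell types. For higher-dose OVA, 0.00656% of genes passed the same test and none of the 32 did; 2 had an unadjusted p under 0.05 and DESeq2 called none.

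Among the saline libraries OT-I and OT-II cells differed more widely in these genes. Of 15235 genes 15.5% were called (8.36% higher and 7.11% lower in OT-I), and of the 32, 12 were higher and 2 lower in OT-I than in OT-II. The median log2 ratio of OT-I over OT-II was 0.32, against -0.02 over all genes. Fold changes here come from the joint fit, while the CPM are scaled within each cell type. Serine and one-carbon enzymes made up 6 of the 12, with a median of 0.84 over the 8: Shmt1 (log2 1.31), Shmt2 (1.12), Psat1 (1.11), Mthfd1l (0.95), Mthfd1 (0.73) and Psph (0.50).

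Shmt2 had 236, 214 and 234 CPM in OT-I saline libraries, against 128, 107 and 106 CPM in OT-II saline libraries (adjusted p = 2.46e-05, edgeR). Mthfd1l had 82.6, 84.9 and 82.9 CPM in OT-I, against 49.6, 44.3 and 46.2 CPM in OT-II (adjusted p = 7.03e-05). The groups did not overlap for either gene. Odc1 (0.92), Gars (0.66), Slc38a1 (0.65), Slc7a6 (0.57), Vars (0.53) and Eprs (0.41) were also higher in OT-I. Mthfd2 went the other way, at -0.34, without passing (adjusted p = 0.147), and Phgdh stood at 0.38 (adjusted p = 0.104).

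Bcat2 and Cars were lower in OT-I. Bcat2 had 50.2, 39.5 and 43 CPM in OT-I saline libraries, against 85.5, 75.3 and 83.1 CPM in OT-II saline libraries, a log2 ratio of -0.77 ± 0.12 (adjusted p = 0.000132, edgeR). Cars, the cysteinyl-tRNA synthetase, averaged 54.2 ± 2.71 CPM in OT-I and 94.3 ± 10.5 CPM in OT-II (SD, n = 3 each), a log2 ratio of -0.69 (adjusted p = 0.0075). Bcat1 did not pass, at 0.66 (adjusted p = 0.299). Of the 14 calls, that of Psph was lost without OT-I saline replicate 1 (adjusted p = 0.0556). Eprs was lost without OT-I saline replicate 1 or 3 or OT-II saline replicate 1 or 3 (adjusted p between 0.0692 and 0.122). Vars was lost without any of OT-I saline replicates 1, 2 and 3 or OT-II saline replicate 2 or 3 (between 0.101 and 0.177). Without the 5 libraries Cars (adjusted p = 0.0914), Eprs (0.136) and Vars (0.0836) were lost, Vars also with RLE factors (0.0552) and with no filter (0.0516), and the other 10 held in all alternative fits.

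**Figure D5:**
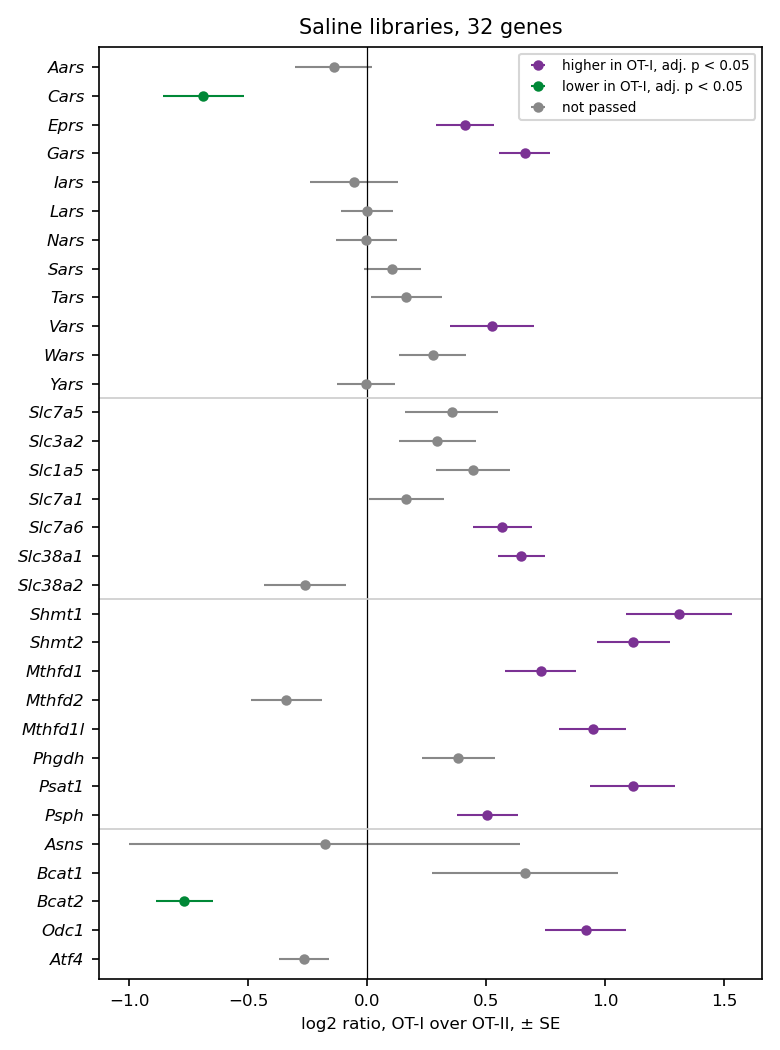
Log2 ratio of OT-I over OT-II in saline libraries (horizontal axis, edgeR estimate of the joint fit ± SE) for the 32 genes. The 12 coloured points right of 0 include 6 of the 8 serine and one-carbon enzymes, and Cars and Bcat2 are the coloured points left of 0.

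Neighbouring genes of the same pathways were counted in the comparison of A8B1-OVA with saline, where 11.5% of all tested genes were called in OT-I and 7.28% in OT-II. Of 11 further cytosolic synthetases and scaffold genes, 2 rose in OT-I and 3 in OT-II, none fell, and the medians were 0.13 and 0.21. Qars, the glutaminyl-tRNA synthetase, averaged 94.2 ± 9.69 CPM in OT-I A8B1-OVA libraries and 53.1 ± 5.47 CPM in saline libraries (log2 0.83, adjusted p = 0.00891, edgeR). Among 17 mitochondrial synthetases Ears2, the mitochondrial glutamyl-tRNA synthetase, fell in both cell types, by a log2 fold change of -0.91 in OT-I (adjusted p = 0.00248) and -0.55 in OT-II (adjusted p = 0.0085, edgeR). Of other amino acid transporters, 1 of 21 fell in OT-I and 0 of 22 passed the test in OT-II, where 3 had an unadjusted p under 0.05 and DESeq2 called 1 lower.

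Folate-cycle and glycine-cleavage genes gave 4 of 23 higher in OT-I and 5 of 23 in OT-II in edgeR, with none lower. DESeq2 called 5 higher and 2 lower in OT-I, and 5 higher and 0 lower in OT-II. The median log2 fold change of the list was -0.09 in OT-I, against -0.02 over all tested genes. In OT-II it was 0.15, against -0.01. Slc19a1, the reduced folate carrier, averaged 110 ± 11.7 CPM with A8B1-OVA and 65.8 ± 7.26 CPM with saline in OT-I (log2 0.75, adjusted p = 0.00279, edgeR). In OT-II Slc19a1 averaged 95.2 ± 12.1 CPM with A8B1-OVA and 45.6 ± 8.44 CPM with saline (log2 1.06, adjusted p = 0.000993). Tyms, thymidylate synthase, rose by log2 2.74 in OT-I (99.6 ± 56.1 CPM with A8B1-OVA and 14.9 ± 2.31 CPM with saline). These calls held without any single library. Tyms shares 18.1% of its 31-base words with another gene, so its counts are uncertain to that extent.

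Of methionine-cycle and polyamine genes none of 19 passed in OT-I, where 7 had an unadjusted p under 0.05 and DESeq2 called 1 higher and 1 lower. In OT-II 3 of 20 rose, among them Eif5a, the translation factor that carries a spermidine-derived hypusine (log2 0.77, adjusted p = 0.00345). Of glutamine, proline and aspartate enzymes, 2 of 26 rose and 1 fell in OT-I, and 1 rose and 1 fell in OT-II, shares close to those over all tested genes. The gene in common with opposite direction was Ass1, argininosuccinate synthase, at log2 0.90 in OT-I and -0.89 in OT-II. It shares 61.5% of its 31-base words with another gene, mostly Gm5424.

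Of integrated stress response genes 2 of 23 rose and 4 fell in OT-I, and 3 rose and 2 fell in OT-II. Jdp2, a Jun-binding repressor, averaged 7.70 ± 0.943 CPM with A8B1-OVA and 0.869 ± 0.244 CPM with saline in OT-I (log2 3.14, adjusted p = 0.00135, edgeR), and rose by log2 3.58 in OT-II (adjusted p = 0.00123). Ppp1r15a, which restores translation by dephosphorylating eIF2, fell in OT-I (log2 -1.63), a call lost without A8B1-OVA replicate 2 (-1.41, adjusted p = 0.0657). Trib3, an ATF4 target, fell in OT-II (log2 -1.05), a call lost in 3 of 12 alternative fits. These left out A8B1-OVA replicate 2 (-0.90, adjusted p = 0.0586), left out the 5 libraries (-0.80, adjusted p = 0.0683) or held only the compared groups (adjusted p = 0.0531).

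Of amino acid sensing and mTORC1 genes 2 of 29 rose and 2 fell in OT-I, and 1 rose and 1 fell in OT-II, again close to the shares over all tested genes. Sesn3, a sestrin that restrains mTORC1, rose in both, by log2 0.62 and 0.84. Of Myc and its partners 2 of 11 rose and 1 fell in OT-I, and 1 rose in OT-II. Mxd4, which competes with Myc for Max, rose by log2 1.51 in OT-I and 1.10 in OT-II, while Myc itself did not pass, at -0.06 and 0.35 (adjusted p = 0.801 and 0.076, edgeR). With higher-dose OVA in OT-I, Jdp2 (log2 3.31, adjusted p = 0.00514), Castor1 (1.25), Slc43a1 (1.33) and Mxd4 (0.69) were the genes called from these 9 lists, each higher than with saline. Of these 4 calls, that of Jdp2 held without any single library. Castor1 was lost without saline replicate 2 or 3 or higher-dose OVA replicate 2 (adjusted p between 0.0572 and 0.0928), Slc43a1 without saline replicate 1, 2 or 3 or higher-dose OVA replicate 2 or 3 (between 0.0933 and 0.177), and Mxd4 without any of the 6 libraries (between 0.0758 and 0.192). These 3 were also lost without the 5 libraries (0.084, 0.0512 and 0.153), and Mxd4 with the replicate block (0.0754).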

How the data were processed

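Polyadenylated RNA was made into SmartSeq cDNA libraries. Per the submitters' processing notes, the authors used bcl2fastq, kallisto 0.46.1 and GRCm38. The deposited values are estimated counts per gene, which are whole numbers in the table. The annotation release they used is not given in the sources used here. All columns of the table were used. From the counts, library factors (TMM) and a quasi-likelihood test were computed with edgeR 4.0.16 in R 4.3.3, after filterByExpr (minimum count 10, minimum total 15), in a fit per cell type over all its treatments. A joint fit of 23 libraries gave interactions and OT-I against OT-II. P-values were adjusted (Benjamini-Hochberg) over all tested genes, with a threshold of 0.05, and adjusted p in the text are edgeR's unless DESeq2 is named. Confidence intervals are at 95%. Intervals cover the spread between libraries. For counts of genes with an unadjusted p under 0.05, the share over all tested genes was not counted. Such counts cannot be set against the percentages called by adjusted p.

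Alternatives were DESeq2 1.42.0, its median-ratio type of size factors in edgeR (RLE), no filter, only the compared groups, a replicate block, each library left out, and, chosen after seeing the data, leaving out 5 libraries with higher marker sums. The procedure was tested on simulated counts that gave every gene the same dispersion and changed only genes with ample counts. That simulation did not cover the smallest changes called here, nor single libraries that depart from their group. Gene positions and shared 31-base words come from GENCODE M21, promoters from RefSeq (GRCm38.p6). The genes, related lists and tests were chosen with earlier results of these data known. Library values are given for called genes with the largest change against saline, up to 4 per role, and for Atf4, Slc7a5, Slc3a2, Mthfd2 and Asns. From each related list, up to 3 called genes with the lowest adjusted p could be named. Further values, such as those of Shmt2 and Bcat2, were chosen after they were seen. Some genes and sequences are not reported here.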

Additional observations from a re-analysis of the deposited data

Results flagged for a closer look

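Ass1, which makes argininosuccinate from citrulline and aspartate, answered A8B1-OVA in opposite directions in the 2 cell types. It averaged 56.4 ± 15.6 CPM with A8B1-OVA and 30.2 ± 0.681 CPM with saline in OT-I (SD, n = 3 each), and 44.7 ± 9.41 CPM with A8B1-OVA and 83.2 ± 7.39 CPM with saline in OT-II. The difference of the log2 responses, OT-I minus OT-II, was 1.82 ± 0.25 (SE), with a confidence interval of 1.31 to 2.34 and an adjusted p of 0.00102 (edgeR interaction test over 15235 genes). It lay between 1.68 and 2.04 in the alternatives run and passed in each, with adjusted p up to 0.0242. In saline libraries Ass1 was lower in OT-I than in OT-II (log2 -1.35). Of its 31-base words 61.5% also occur in another gene, mostly Gm5424, and 0% in another protein-coding gene. Its counts are therefore uncertain, and the part of shared reads was not tested.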

How the results depend on the processing

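Counts of called genes among the 32 stayed within 1.5 times the values in the report under most alternatives. DESeq2 called 10 (edgeR 6) in OT-I A8B1-OVA against higher-dose OVA, 7 (edgeR 4) in the same comparison in OT-II, and 1 (edgeR 0) each in OT-I higher-dose OVA against molar-equivalent OVA, OT-I higher-dose OVA against saline and OT-II higher-dose OVA against saline. Fits of only the compared groups called 2 (against 0) in OT-I higher-dose OVA against saline and 1 (against 4) in OT-II A8B1-OVA against higher-dose OVA. Without the 5 libraries with higher marker sums, chosen after seeing the data, 2 (against 6) were called in OT-I A8B1-OVA against higher-dose OVA and 5 (against 8) in OT-II A8B1-OVA against molar-equivalent OVA. For A8B1-OVA in OT-I, leaving out 1 library at a time gave 4 to 8 against saline and 5 to 8 against molar-equivalent OVA. Against higher-dose OVA it gave 3 to 9. Over all tested genes these fits called 674 to 2569, 575 to 2181 and 38 to 1487. In OT-II they gave 5 to 8 against saline and 4 to 9 against molar-equivalent OVA (578 to 1011 and 441 to 968 over all genes). No count is given against higher-dose OVA in OT-II, where such a fit can leave 1 library. Saline OT-I against OT-II gave 11 to 13 (1731 to 2067 over all genes). Counts over all genes in the other alternatives are not given here. The log2 fold changes of A8B1-OVA over saline that turned sign were those of Asns (-0.13) and Slc3a2 (-0.02) in OT-II, neither called: without the libraries with higher marker sums they were 0.34 and 0.0603, and without single libraries they ran from -0.42 to 0.34 and from -0.12 to 0.0606. The cause was not tested. With the replicate number as a block, 1 (against 4) was called in OT-II A8B1-OVA against higher-dose OVA, 6 (against 7) in OT-I A8B1-OVA against saline and 8 (against 8) in OT-II. Within a cell type the numbers showed little pairing: of 18 same-numbered pairs in OT-I 2 correlated above 0.1, and of 15 in OT-II 0 did. Between the cell types, 6 of 11 pairs with the same number and treatment correlated above 0.1 (at most 0.283). Of 33 same-numbered pairs with different treatments, 1 did. The main tests between the cell types used no such pairing. OT-II higher-dose OVA rests on 2 libraries, and Asns on 0 to 139 counts per library.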
